A study of Mus musculus with 2 samples.

Results

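Conventional CD4 T cells are the helper arm of the T cell response. They read peptides on MHC class II molecules through the T cell receptor with CD4 as co-receptor, and act on other cells through secreted cytokines and through surface ligands of the tumour necrosis factor family such as CD40 ligand. In a tumour they stand beside cytotoxic CD8 T cells and beside Foxp3-positive regulatory T cells, which also carry CD4. Osteopontin, the product of Spp1, is a secreted protein of macrophages that T cells can bind through CD44 and several integrins.

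The cells came from tumours of MC38, a colon carcinoma line of the mouse, in SPP1fl/fl-Lyz2-icre hosts and in SPP1fl/fl hosts. Both groups carry the floxed Spp1 alleles, and only the first carries Lyz2-icre, whose promoter is active in myeloid cells and not in T cells. Live CD45-positive cells were sorted and sequenced as 1 droplet library per genotype, and without replicates the genotypes can be described but not tested against each other. The labels state neither the age of the mice nor how many were used, and cells with female and with male transcripts occur in both libraries.

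A conventional CD4 T cell was a kept cell with at least 1 UMI (a counted transcript molecule) of Cd4, at least 2 UMIs of Cd3d, Cd3e and Cd3g together, no UMI of Cd8a, Cd8b1, Foxp3 or Ncr1, at most 1 UMI of Trdc, and less than 0.3% of its UMIs from the C1q genes of macrophages. This gate held 117 of 22639 kept cells, 46 of 13915 in the SPP1fl/fl-Lyz2-icre library and 71 of 8724 in the SPP1fl/fl library. Cd4 lies on chromosome 6 (124864692 to 124888221, minus strand, mm10) and Cd3e on chromosome 9 (44998740 to 45009627, minus strand). The members were thus selected on measured UMIs of the gate genes, whose values are a description. Of the members, 26 of 46 in the SPP1fl/fl-Lyz2-icre library and 28 of 71 in the SPP1fl/fl library held a single Cd4 UMI, at the edge of the gate. Cells with no Cd4 UMI that passed every other step numbered 119 in the SPP1fl/fl-Lyz2-icre library and 98 in the SPP1fl/fl library. Cells left outside by a single Foxp3 UMI numbered 9 in the SPP1fl/fl-Lyz2-icre library and 20 in the SPP1fl/fl library, and those left outside by 2 or more Foxp3 UMIs numbered 15 in SPP1fl/fl-Lyz2-icre and 28 in SPP1fl/fl. The C1q limit left out 33 cells of the SPP1fl/fl-Lyz2-icre library and 22 of the SPP1fl/fl library that met the other steps.

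The 2 libraries held 98256831 UMIs in kept cells of SPP1fl/fl-Lyz2-icre and 88047097 in those of SPP1fl/fl. Members held 208623 UMIs in the SPP1fl/fl-Lyz2-icre library, with a median of 3146 per cell and a range of 1199 to 14217. They held 422024 UMIs in the SPP1fl/fl library, with a median of 3942 and a range of 819 to 27978. The median mitochondrial share was 0.893% in SPP1fl/fl-Lyz2-icre members and 1.80% in SPP1fl/fl members, and the phagocytes of the same libraries differed likewise, at 0.767% in SPP1fl/fl-Lyz2-icre and 1.61% in SPP1fl/fl. There were 43 cell barcodes that occurred in both libraries, and 0 of them belonged to a member. All 95% intervals cover the counting of cells or UMIs only. They leave out the spread between mice and, for UMIs, the spread between cells.

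All 14 of 14 CD4 T cell markers were detected in both libraries, but the gate required some of them and CD8 T cells held 13 of 14, all but the Cd4 that their gate bars. Cd40lg, the helper ligand for CD40 and no part of the gate, stood at 57.5 CPM (a gene's UMIs over all UMIs of the gate's cells, scaled) in SPP1fl/fl-Lyz2-icre members and 23.7 CPM in SPP1fl/fl members, against 0.676 CPM in CD8 T cells of SPP1fl/fl-Lyz2-icre and 1.08 CPM in those of SPP1fl/fl. Of 7 natural killer cell markers, 2 were detected in SPP1fl/fl-Lyz2-icre members and 5 in SPP1fl/fl members, at a summed 494 CPM in SPP1fl/fl-Lyz2-icre and 557 CPM in SPP1fl/fl. Most of this was Tyrobp, which phagocytes also express, at 436 CPM in SPP1fl/fl-Lyz2-icre members and 495 CPM in SPP1fl/fl members, and CD8 T cells held 725 CPM of the list in SPP1fl/fl-Lyz2-icre and 582 CPM in SPP1fl/fl. Macrophage RNA was present: all 12 of 12 macrophage markers were detected in members of both libraries, at a summed 2095 CPM in SPP1fl/fl-Lyz2-icre and 3983 CPM in SPP1fl/fl. The dendritic cell list summed to 10176 CPM in SPP1fl/fl-Lyz2-icre members and 9703 CPM in SPP1fl/fl members, and Cd74, the invariant chain of MHC class II, gave 4189 CPM in SPP1fl/fl-Lyz2-icre and 4457 CPM in SPP1fl/fl of it. CD8 T cells held less of that list, 4001 CPM in SPP1fl/fl-Lyz2-icre and 4141 CPM in SPP1fl/fl. Foxp3-positive cells did not, at 9006 CPM in SPP1fl/fl-Lyz2-icre and 11941 CPM in SPP1fl/fl. A single SPP1fl/fl-Lyz2-icre member held all 100 Col3a1 UMIs and all 25 Sparc UMIs of that library's members, which are genes of fibroblasts. The part of these transcripts in the results was not tested, except that values without the members rich in MHC class II transcripts were computed.

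Conventional CD4 T cells made up a smaller share of the SPP1fl/fl-Lyz2-icre library. They were 0.331% of kept cells there (46 of 13915, 0.242 to 0.441, Clopper-Pearson), against 0.814% in the SPP1fl/fl library (71 of 8724, 0.636 to 1.03), a ratio of 0.406 (0.274 to 0.597, exact conditional binomial interval). Set against gated T cells, which removes the larger number of phagocytes from the denominator, they were 7.20% of 639 cells (5.32 to 9.49) in SPP1fl/fl-Lyz2-icre and 11.5% of 617 cells (9.10 to 14.3) in SPP1fl/fl, a ratio of 0.626 (0.422 to 0.919). The gate was also applied after each cell was drawn down to 2000 UMIs. Members were then 24 of 451 gated T cells in SPP1fl/fl-Lyz2-icre and 46 of 552 in SPP1fl/fl. That ratio was 0.639 (0.373 to 1.07), with an interval that held 1, and the ratio among kept cells was 0.347 (0.203 to 0.581). Within gated T cells, CD8 T cells went the other way, at 53.2% (49.3 to 57.1) in SPP1fl/fl-Lyz2-icre and 44.7% (40.8 to 48.8) in SPP1fl/fl. Of kept cells, CD8 T cells were 340 of 13915 in SPP1fl/fl-Lyz2-icre and 276 of 8724 in SPP1fl/fl, the smaller share in SPP1fl/fl-Lyz2-icre. Gated T cells, at 639 and 617 of the same kept cells, were likewise the smaller share there. There were 0.135 conventional CD4 T cells per CD8 T cell in SPP1fl/fl-Lyz2-icre and 0.257 in SPP1fl/fl, a ratio of 0.526 (0.343 to 0.802).

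Foxp3-positive CD4 T cells were fewer in the SPP1fl/fl-Lyz2-icre library as well, at 3.76% of gated T cells (24 cells) against 7.78% (48 cells) in SPP1fl/fl. The members' share of the CD4 T cells with or without Foxp3 was 65.7% (53.4 to 76.7, 46 of 70 cells) in SPP1fl/fl-Lyz2-icre and 59.7% (50.3 to 68.6, 71 of 119 cells) in SPP1fl/fl, with intervals that overlap. T cells with no UMI of Cd4, Cd8 or Foxp3 were 18.6% of gated T cells in SPP1fl/fl-Lyz2-icre and 15.9% in SPP1fl/fl. Cd4 is a low transcript, so these cells may belong to any of the gates, and their part in the shares was not tested.

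The ratio among gated T cells varied with the sex of the cells and with the members that held regulatory-associated genes. It was 0.743 (0.440 to 1.24) among cells with female transcripts (28 SPP1fl/fl-Lyz2-icre and 39 SPP1fl/fl members) and 0.373 (0.121 to 0.982) among cells with male transcripts (6 SPP1fl/fl-Lyz2-icre and 18 SPP1fl/fl members). Leaving out members with a UMI of Il2ra, the high-affinity interleukin-2 receptor chain, or Ikzf2, the transcription factor Helios, gave 19 members in each library and a ratio of 0.966. Detection of those genes followed depth: in SPP1fl/fl they were found in 73.2% of members at full depth and in 54.4% at 2000 UMIs. At 2000 UMIs per cell, members without them were 3.87% of gated T cells of that depth in SPP1fl/fl-Lyz2-icre (19 of 491) and 5.28% in SPP1fl/fl (31 of 587), a ratio of 0.733 (0.391 to 1.34). Members with them were 3.26% (16 of 491) in SPP1fl/fl-Lyz2-icre and 6.30% (37 of 587) in SPP1fl/fl, a ratio of 0.517 (0.269 to 0.953).

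**Figure D1:**
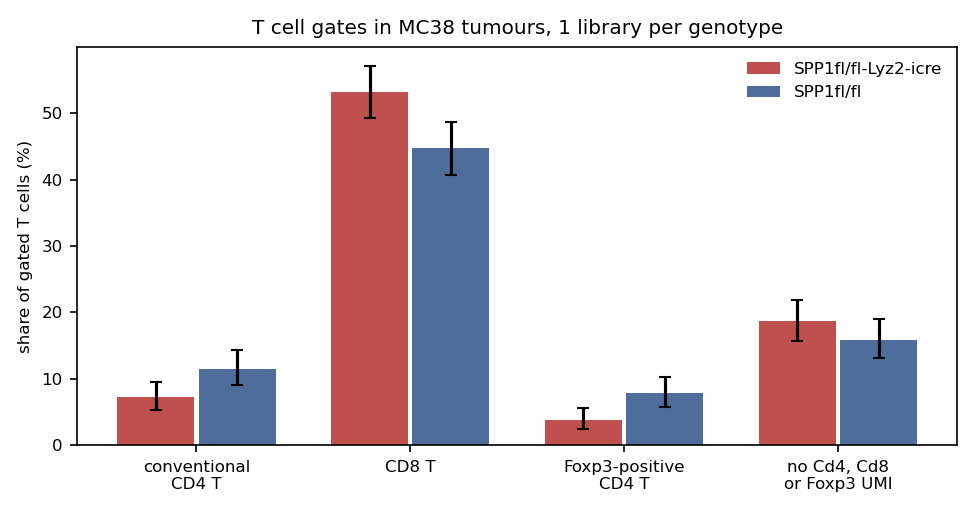
Bars give the share of gated T cells (%) in each T cell gate, SPP1fl/fl-Lyz2-icre left and SPP1fl/fl right, with 95% Clopper-Pearson intervals that cover cell counting only, for 1 library per genotype. Conventional CD4 T cells stand at 7.20% in SPP1fl/fl-Lyz2-icre and 11.5% in SPP1fl/fl, and CD8 T cells at 53.2% in SPP1fl/fl-Lyz2-icre and 44.7% in SPP1fl/fl.

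What the members expressed was read at a fixed depth, with each cell drawn down to 2000 UMIs, which kept 35 of 46 SPP1fl/fl-Lyz2-icre members and 68 of 71 SPP1fl/fl members. Receptors of activated T cells were found in most members. Icos, a co-stimulatory receptor, was detected in 68.6% of members (50.7 to 83.1) in SPP1fl/fl-Lyz2-icre and 61.8% (49.2 to 73.3) in SPP1fl/fl, against 40.0% of SPP1fl/fl-Lyz2-icre and 36.5% of SPP1fl/fl CD8 T cells. In C1q-high phagocytes, which mark the level of free RNA, it was detected in 0.283% of SPP1fl/fl-Lyz2-icre and 0.255% of SPP1fl/fl cells. Tnfrsf4, which encodes OX40, was detected in 65.7% of SPP1fl/fl-Lyz2-icre members and 70.6% of SPP1fl/fl members. Ctla4, an inhibitory receptor, was detected in 62.9% of SPP1fl/fl-Lyz2-icre and 60.3% of SPP1fl/fl members. Tnfrsf18, which encodes GITR, was detected in 51.4% (34.0 to 68.6) of SPP1fl/fl-Lyz2-icre members and 75% (63.0 to 84.7) of SPP1fl/fl members. For each of these 4 genes the intervals of the 2 libraries overlapped. They did not set members apart from Foxp3-positive cells, of which 75% in SPP1fl/fl-Lyz2-icre and 73.9% in SPP1fl/fl held Icos, and 90% in SPP1fl/fl-Lyz2-icre and 87.0% in SPP1fl/fl held Tnfrsf4. Ctla4 was held by 70% of those cells in SPP1fl/fl-Lyz2-icre and 73.9% in SPP1fl/fl, and Tnfrsf18 by 85% in SPP1fl/fl-Lyz2-icre and 82.6% in SPP1fl/fl.

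Tcf7, a factor of naive and stem-like T cells, was detected in 0 of 35 SPP1fl/fl-Lyz2-icre members and in 4 of 68 SPP1fl/fl members. With a floor of 3 cells, 0 of 35 allows a share of up to 8.57% of cells with a UMI at that depth. The Clopper-Pearson upper limit was 10.0%. Before drawing down, 2 of 46 SPP1fl/fl-Lyz2-icre members and 10 of 71 SPP1fl/fl members held Tcf7. Transcripts of Mki67 or Top2a were found in 25.7% of SPP1fl/fl-Lyz2-icre members and 27.9% of SPP1fl/fl members. CD8 T cells stood at 33.8% in SPP1fl/fl-Lyz2-icre and 27.0% in SPP1fl/fl, and Foxp3-positive cells at 40% in SPP1fl/fl-Lyz2-icre and 32.6% in SPP1fl/fl. Phagocytes stood at 24.6% in SPP1fl/fl-Lyz2-icre and 23.7% in SPP1fl/fl. They may express these genes themselves, so their share does not mark free RNA here. Whether members were cycling was not tested.

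Members carried both Th1 and regulatory-associated genes, the first at shares above those of Foxp3-positive cells and the second at shares below them. Ifng, Tbx21 or Cxcr3, genes of type 1 helper cells, were found in 40.0% (23.9 to 57.9) of SPP1fl/fl-Lyz2-icre members and 54.4% (41.9 to 66.5) of SPP1fl/fl members, against 59.0% of SPP1fl/fl-Lyz2-icre and 52.2% of SPP1fl/fl CD8 T cells. Foxp3-positive cells stood at 20% (5.73 to 43.7) in SPP1fl/fl-Lyz2-icre, an interval that overlaps that of members, and at 19.6% (9.36 to 33.9) in SPP1fl/fl. Il2ra or Ikzf2 were found in 45.7% (28.8 to 63.4) of SPP1fl/fl-Lyz2-icre members and 54.4% (41.9 to 66.5) of SPP1fl/fl members. The same was so of 39.3% of SPP1fl/fl-Lyz2-icre and 52.9% of SPP1fl/fl CD8 T cells, and of 95% of SPP1fl/fl-Lyz2-icre and 95.7% of SPP1fl/fl Foxp3-positive cells. Taken singly, Il2ra was found in 34.3% (19.1 to 52.2) of SPP1fl/fl-Lyz2-icre members and 26.5% (16.5 to 38.6) of SPP1fl/fl members. CD8 T cells held it less often, at 12.8% (9.14 to 17.2) in SPP1fl/fl-Lyz2-icre and 11.3% (7.82 to 15.7) in SPP1fl/fl. Ikzf2 was found in 25.7% of SPP1fl/fl-Lyz2-icre and 41.2% of SPP1fl/fl members, against 29.7% and 45.6% of CD8 T cells. Foxp3 stood at only 518 CPM in SPP1fl/fl-Lyz2-icre and 355 CPM in SPP1fl/fl in the cells chosen for it. Members may thus include regulatory T cells in which no Foxp3 UMI was counted, and their part was not tested. Maf was detected in 40.0% of SPP1fl/fl-Lyz2-icre and 51.5% of SPP1fl/fl members, but also in 33.3% of SPP1fl/fl-Lyz2-icre and 37.9% of SPP1fl/fl phagocytes. CD8 T cells stood at 6.21% in SPP1fl/fl-Lyz2-icre and 5.47% in SPP1fl/fl. Gzmb or Prf1, which encode killing proteins, were found in 14.3% of SPP1fl/fl-Lyz2-icre members and 19.1% of SPP1fl/fl members, against 61.0% of SPP1fl/fl-Lyz2-icre and 58.8% of SPP1fl/fl CD8 T cells.

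**Figure D2:**
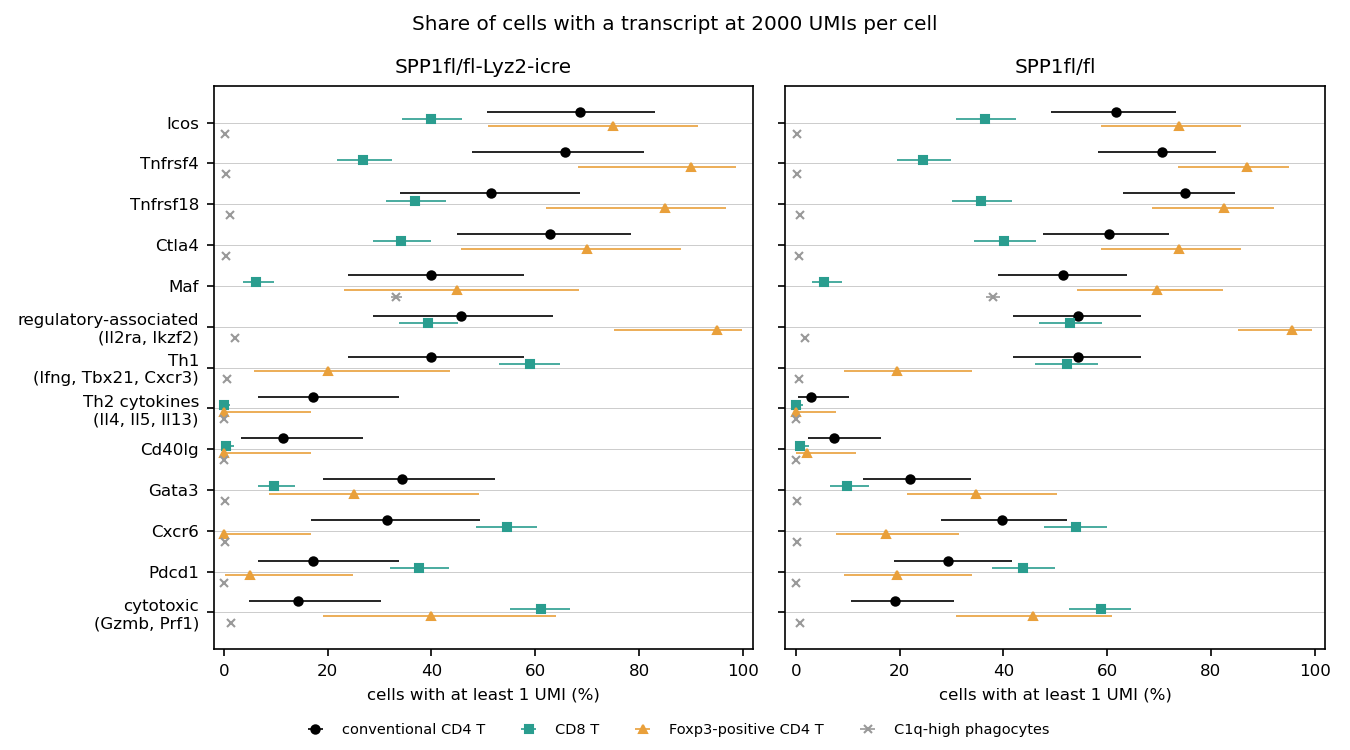
Points give the share of cells (%) with at least 1 UMI of a gene or of any gene named in brackets, each cell drawn down to 2000 UMIs, with 95% Clopper-Pearson intervals, SPP1fl/fl-Lyz2-icre left and SPP1fl/fl right. Icos and Tnfrsf4 lie above CD8 T cells in both libraries, and Il2ra or Ikzf2 lie far below the Foxp3-positive cells, at 95% in SPP1fl/fl-Lyz2-icre and 95.7% in SPP1fl/fl.

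Members were set against CD8 T cells of the same library. Of 3249 genes tested, 185 (5.69%) were at least 1.5-fold higher in members with an interval clear of 1 in both libraries, and 73 (2.25%) were lower. Both gates were cut on Cd4 and Cd8 transcripts, so these are descriptions of the gates. The 10 highest were Lgals7, Penk, Maf, Csf2, Ramp1, Tnfsf8, Areg, Tnfsf11, Il1r2 and Ifi27l2a. Lgals7, which encodes galectin-7, had 36 UMIs in SPP1fl/fl-Lyz2-icre members (173 CPM) against 1 in CD8 T cells (0.676 CPM). In SPP1fl/fl it had 45 UMIs in members (107 CPM) against 3 in CD8 T cells (1.62 CPM). Its UMIs lay in 9 members of each library. Penk, the precursor of enkephalin peptides, stood at 513 CPM in SPP1fl/fl-Lyz2-icre members and 3.38 CPM in CD8 T cells, and at 272 CPM in SPP1fl/fl members and 14 CPM in CD8 T cells, but 1 cell held 63.6% of the SPP1fl/fl-Lyz2-icre UMIs. Tnfsf8 (CD30 ligand) was 5 times the CD8 level in SPP1fl/fl-Lyz2-icre (3.05 to 8.09) and 5.65 times in SPP1fl/fl (4.12 to 7.76). Tnfsf11, which encodes RANKL, was 5.36 times (3.4 to 8.38) in SPP1fl/fl-Lyz2-icre and 4.29 times (3.10 to 5.93) in SPP1fl/fl. Csf2, the growth factor GM-CSF, was 8.59 times (4.47 to 16.7) in SPP1fl/fl-Lyz2-icre and 7.44 times (4.94 to 11.4) in SPP1fl/fl.

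The 10 lowest against CD8 T cells were the cytotoxic genes Gzmf, Gzmd, Prf1 and Ctsw, the receptor genes Klre1, Klrh1 and Klrk1, the chemokines Xcl1 and Ccl5, and Nr4a2. Gzmf, a granzyme, had 0 UMIs in SPP1fl/fl-Lyz2-icre members and 1 in SPP1fl/fl members, against 742 CPM in SPP1fl/fl-Lyz2-icre and 463 CPM in SPP1fl/fl CD8 T cells. With a floor of 3 counts, it was at least 51.6-fold lower in SPP1fl/fl-Lyz2-icre members than in CD8 T cells. Ccl5 stood at 364 CPM in SPP1fl/fl-Lyz2-icre members and 355 CPM in SPP1fl/fl members, against 1125 CPM in SPP1fl/fl-Lyz2-icre and 1820.0 CPM in SPP1fl/fl CD8 T cells.

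Members were then set against Foxp3-positive cells. Of 3359 genes tested, 52 (1.55%) were higher in members in both libraries and 38 (1.13%) were lower. These calls came from 24 Foxp3-positive cells in SPP1fl/fl-Lyz2-icre and 48 in SPP1fl/fl, against 340 CD8 T cells in SPP1fl/fl-Lyz2-icre and 276 in SPP1fl/fl, so the counts of the 2 comparisons are not set against each other. The 10 highest were Nrgn, Ifng, Csf2, Ccl1, Tnfsf8, Tnfsf11, Xcl1, Bcl2, Klrd1 and Lgals7. Some rested on few cells. A single SPP1fl/fl member held 304 of 414 Ccl1 UMIs. For Lgals7, found in 9 members of each library, 1 cell held 41.7% of the UMIs in SPP1fl/fl-Lyz2-icre and 35.6% in SPP1fl/fl. In SPP1fl/fl-Lyz2-icre, Xcl1 lay in 6 members, of which 1 held 44.8% of its UMIs, and Csf2 in 5. Ifng, the main type 1 cytokine (chromosome 10, 118441046 to 118445892, plus strand), stood at 1136 CPM in SPP1fl/fl-Lyz2-icre members against 34.0 CPM in Foxp3-positive cells, and at 675 against 19.7 CPM in SPP1fl/fl. Nrgn, known for binding calmodulin in neurons, had 71 UMIs in SPP1fl/fl-Lyz2-icre members and 0 in Foxp3-positive cells, at least 13.4-fold higher, and 141 against 2 UMIs in SPP1fl/fl. It was not particular to the CD4 lineage, since CD8 T cells held 437 CPM in SPP1fl/fl-Lyz2-icre and 411 CPM in SPP1fl/fl. Csf2 had 0 UMIs in Foxp3-positive cells of both libraries and was at least 4.33-fold higher in SPP1fl/fl-Lyz2-icre members and at least 18.5-fold higher in SPP1fl/fl members. The 10 lowest were Cxcl10, Klrg1, Arl5c, Bmyc, Ccr7, Psen2, Ikzf2, Snx18, Cmtm7 and Arl5a. Ikzf2 stood at 388 CPM in SPP1fl/fl-Lyz2-icre members against 1519 CPM in Foxp3-positive cells, and at 438 against 1055 CPM in SPP1fl/fl.

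**Figure D3:**
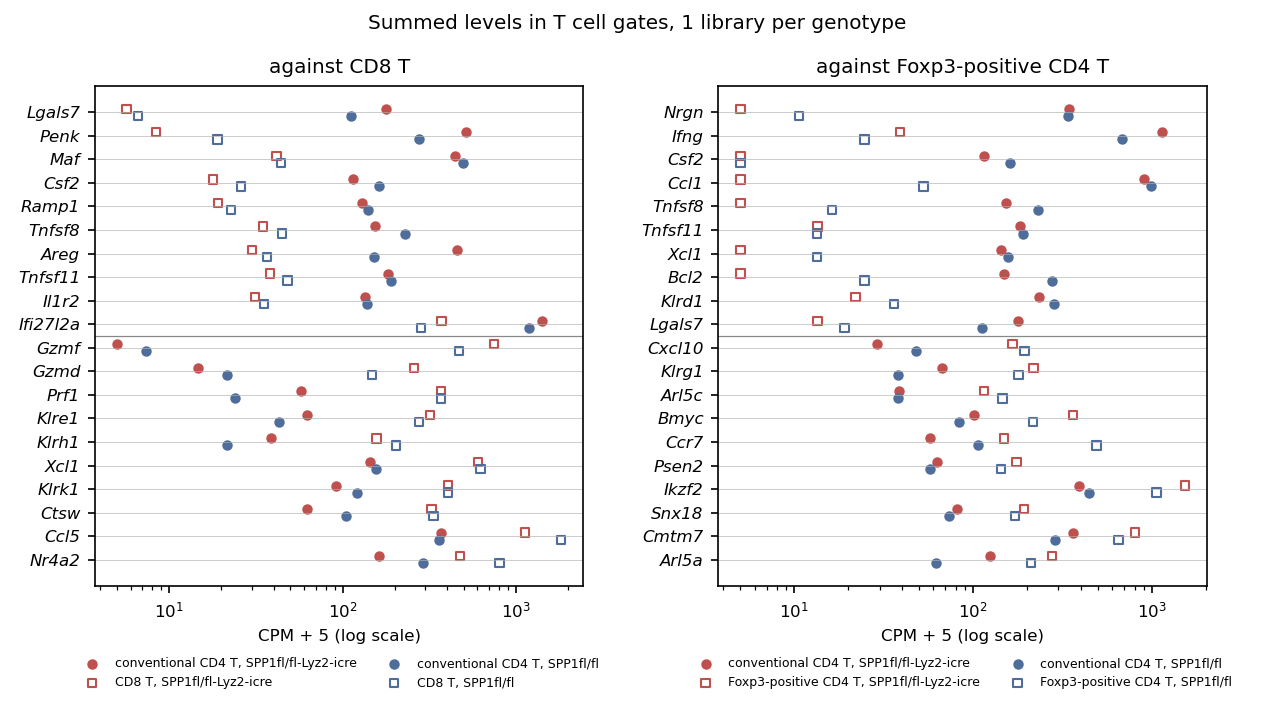
Filled circles give summed levels (CPM + 5, log axis) in conventional CD4 T cells and open squares those in CD8 T cells (left panel) or Foxp3-positive CD4 T cells (right panel), SPP1fl/fl-Lyz2-icre in red and SPP1fl/fl in blue. Genes above the line are the 10 highest and those below it the 10 lowest in conventional CD4 T cells, and every circle lies on the same side of its square in both libraries, as the choice of genes requires.

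The 10 genes that stood highest against Foxp3-positive cells lay in part of the members. At 2000 UMIs per cell, 13 of 35 SPP1fl/fl-Lyz2-icre members (37.1%) and 27 of 68 SPP1fl/fl members (39.7%) held at least 3 of these 10 genes, while 7 SPP1fl/fl-Lyz2-icre and 14 SPP1fl/fl members held none of them. CD8 T cells held at least 3 of them more often, in 60.3% of cells in SPP1fl/fl-Lyz2-icre and 57.7% in SPP1fl/fl. Depth before drawing down did not separate them much, with a median of 4323 UMIs for SPP1fl/fl-Lyz2-icre members with 3 or more genes and 4716 UMIs for those with fewer. In SPP1fl/fl the medians were 4181 UMIs with 3 or more and 3742 UMIs with fewer. Nrgn and Ifng were found together in 7 SPP1fl/fl-Lyz2-icre members, of 10 with Nrgn and 11 with Ifng. In SPP1fl/fl they were found together in 11 members, of 18 with Nrgn and 25 with Ifng. Nrgn and Tnfsf11 were together in 3 SPP1fl/fl-Lyz2-icre members, of 10 with Nrgn and 8 with Tnfsf11, and in 10 SPP1fl/fl members, of 18 with Nrgn and 19 with Tnfsf11. Gzmb was found in 3 SPP1fl/fl-Lyz2-icre members and 11 SPP1fl/fl members, of which 0 held Nrgn and 0 held Tnfsf11. It did occur with others of the 10 genes, in SPP1fl/fl-Lyz2-icre with Bcl2 in 1 member, and in SPP1fl/fl with Tnfsf8, Xcl1, Bcl2 and Klrd1 in 2 members each and with Ifng and Csf2 in 1 each. These counts are descriptions, and the overlap was looked at after the values were seen.

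Members with and without Il2ra or Ikzf2 were set side by side for other genes at 2000 UMIs, with no test, and Lag3 and Itgb1 are named for their contrast after the values were seen. Lag3, an inhibitory receptor, was found in 4 of 16 members with these genes against 1 of 19 without them in SPP1fl/fl-Lyz2-icre, and in 12 of 37 against 1 of 31 in SPP1fl/fl. Itgb1, the integrin beta-1 chain, had the opposite order, in 3 of 16 against 9 of 19 members in SPP1fl/fl-Lyz2-icre and 6 of 37 against 16 of 31 in SPP1fl/fl. Ifng was found in 3 of 16 against 8 of 19 members in SPP1fl/fl-Lyz2-icre, but in 14 of 37 against 11 of 31 in SPP1fl/fl. Maf, too, had no common order, in 9 of 16 against 5 of 19 members in SPP1fl/fl-Lyz2-icre and in 18 of 37 against 17 of 31 in SPP1fl/fl. Ctla4 was found in 11 of 16 against 11 of 19 members in SPP1fl/fl-Lyz2-icre and 28 of 37 against 13 of 31 in SPP1fl/fl. Icos was found in 14 of 16 against 10 of 19 members in SPP1fl/fl-Lyz2-icre and 25 of 37 against 17 of 31 in SPP1fl/fl. Tnfrsf4, Tnfrsf18 and Tnfrsf9 had that order in both libraries too, while Capg and S100a4, also on the regulatory-associated list, did not. At least 3 of the 10 genes from Nrgn to Lgals7 were found in 6 of 16 against 7 of 19 members in SPP1fl/fl-Lyz2-icre and in 15 of 37 against 12 of 31 in SPP1fl/fl.

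**Figure D4:**
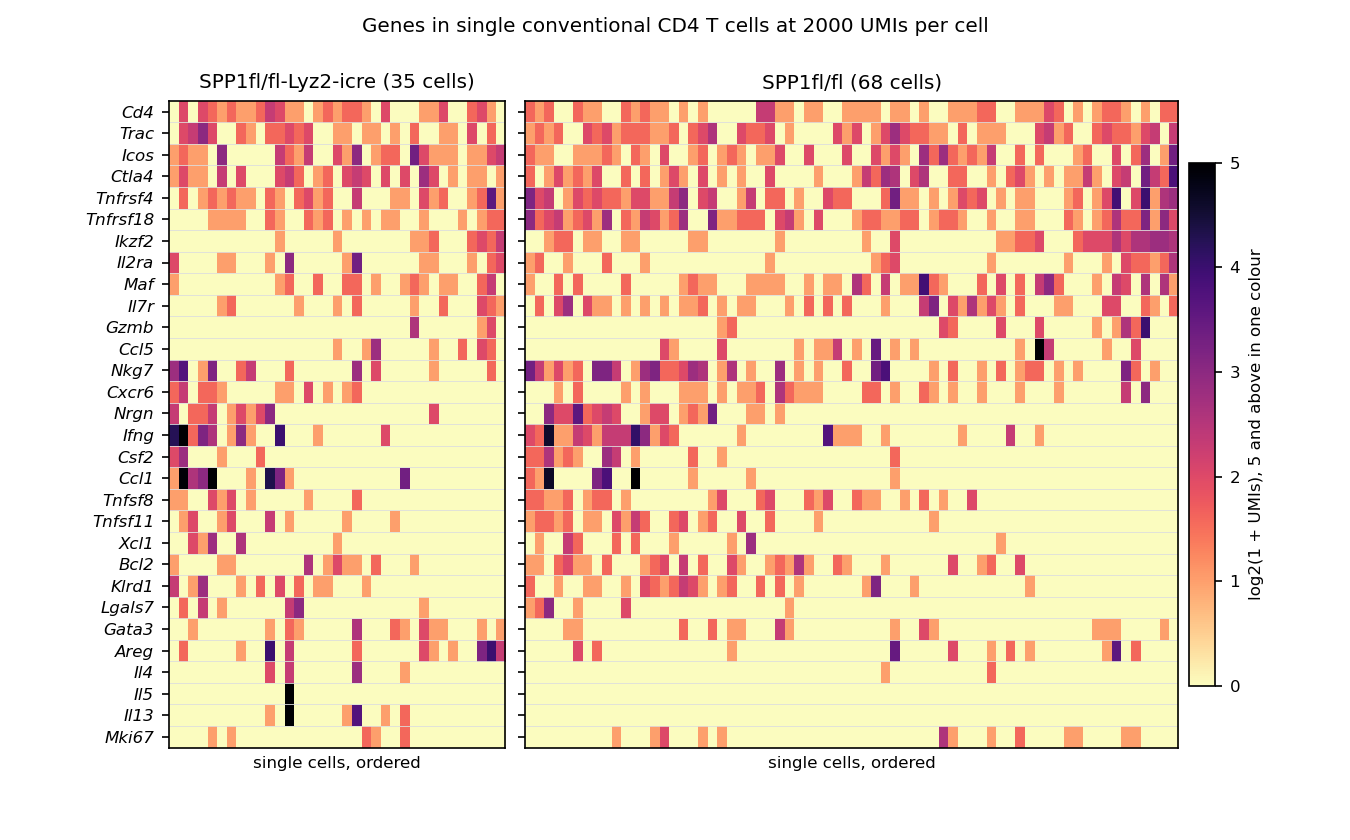
Each column is 1 conventional CD4 T cell at 2000 UMIs and each row a gene, coloured by log2(1 + UMIs), with 35 SPP1fl/fl-Lyz2-icre cells left and 68 SPP1fl/fl cells right, ordered within each library by how many of the 10 genes from Nrgn to Lgals7 they hold and then by Ikzf2 and Il2ra. These 10 genes crowd into the left cells of each panel, and Il5 and Il13 are dark in very few SPP1fl/fl-Lyz2-icre cells.

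Between genotypes, UMIs were summed over members and scaled to CPM. Of 3750 genes with at least 50 CPM in either library, 202 (5.39%) were at least 1.5-fold higher in SPP1fl/fl-Lyz2-icre with an interval clear of 1, and 195 (5.2%) were lower, together 10.6% of the genes. The median log2 ratio over all tested genes (SPP1fl/fl-Lyz2-icre over SPP1fl/fl, 5 CPM added) was 0.015. These counts pass a fold and no test, and 50 CPM corresponded to 10.4 UMIs in SPP1fl/fl-Lyz2-icre members and 21.1 in SPP1fl/fl members. The lists of genes were set with earlier results of these data known, so their counts are read against those shares of the background.

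Type 2 cytokine genes were higher in SPP1fl/fl-Lyz2-icre members, in very few cells. Of 7 measured genes of the Th2 list, 5 were called higher (Gata3, Il4, Il5, Il13 and Il1rl1) and 0 lower, with a median log2 ratio of 1.31. Il13, a cytokine of allergic and anti-helminth responses (chromosome 11, 53631324 to 53634702, minus strand), had 308 UMIs in 6 SPP1fl/fl-Lyz2-icre members and 0 UMIs in SPP1fl/fl members. Il5, which acts on eosinophils (chromosome 11, 53720794 to 53725106, plus strand), had 130 UMIs in 3 SPP1fl/fl-Lyz2-icre members and 0 in SPP1fl/fl members. Il4 (chromosome 11, 53602982 to 53618669, minus strand) had 27 UMIs in 4 SPP1fl/fl-Lyz2-icre members and 5 UMIs in 2 SPP1fl/fl members.

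A single SPP1fl/fl-Lyz2-icre cell held 85.1% of the Il13 UMIs (262) and 98.5% of the Il5 UMIs (128). It had 6714 UMIs in all, 20 Cd3 UMIs, 25 UMIs of the T cell receptor constant genes, 8 Cd4 UMIs and 68 Penk UMIs, and it carried male transcripts. A second cell of that library, with female transcripts, held 16 Il4, 27 Il13, 17 Gata3 and 49 Il2ra UMIs, and another held 16 Il13 UMIs. With a floor of 3 counts in SPP1fl/fl, Il13 was at least 208-fold higher in SPP1fl/fl-Lyz2-icre members, and at least 32.0-fold higher without the cell that held most. Il5 was at least 87.7-fold higher, and at 9.91 CPM was near the floor without that cell. By cells, 6 of 35 SPP1fl/fl-Lyz2-icre members at 2000 UMIs held Il4, Il5 or Il13 (17.1%, 6.56 to 33.6), against 2 of 68 in SPP1fl/fl (2.94%, 0.358 to 10.2), intervals that overlap. No CD8 T cell and no Foxp3-positive cell held one at that depth. Before drawing down, the SPP1fl/fl-Lyz2-icre members counted here included a cell with 1 Il5 and 1 Il13 UMI. Another had 1 Il13 UMI as its only UMI of these cytokine genes, and 3 Cd3 UMIs among 7358 UMIs. Neither of these cells held a Gata3 UMI. Outside the members, 13 kept cells of the SPP1fl/fl-Lyz2-icre library and 10 of the SPP1fl/fl library held an Il5 or Il13 UMI. Of these, 4 in SPP1fl/fl-Lyz2-icre and 4 in SPP1fl/fl also held a mast cell or basophil gene, and 8 in SPP1fl/fl-Lyz2-icre and 5 in SPP1fl/fl were high in C1q. Il13 had 100 UMIs outside the members in SPP1fl/fl-Lyz2-icre and 16 in SPP1fl/fl, and Il5 had 2 in SPP1fl/fl-Lyz2-icre and 3 in SPP1fl/fl.

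Related genes rested on those cells to different degrees. Gata3, the transcription factor of type 2 cells, stood at 254 CPM (190 to 332, in 22 members) in SPP1fl/fl-Lyz2-icre and 99.5 CPM (71.7 to 135, in 24 members) in SPP1fl/fl, a ratio of 2.55. Without the members that held Il4, Il5 or Il13 the ratio was 1.48 (0.873 to 2.47). Il2ra stood at 542 CPM in SPP1fl/fl-Lyz2-icre and 225 CPM in SPP1fl/fl, a ratio of 2.41 that became 0.989 (0.659 to 1.46) without those members. Areg, the growth factor amphiregulin, stood at 451 CPM (364 to 551, in 15 members) in SPP1fl/fl-Lyz2-icre and 147 CPM (113 to 188, in 21 members) in SPP1fl/fl, a ratio of 3.07. It remained 2.12 (1.44 to 3.11) without those members. Areg was not particular to members, since Foxp3-positive cells held 577 CPM in SPP1fl/fl-Lyz2-icre and 582 CPM in SPP1fl/fl. Il1rl1, the interleukin-33 receptor, had 13 UMIs in SPP1fl/fl-Lyz2-icre and 10 in SPP1fl/fl, and its call was lost without them (1.68, 0.542 to 4.88). Maf, also on the Th2 list, was at 441 CPM in SPP1fl/fl-Lyz2-icre and 493 CPM in SPP1fl/fl and passed no call.

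The type 1 genes were called in both directions. Of 10 measured Th1 genes, 1 was called higher (Ifng) and 3 lower (Il18r1, Il18rap and Ifngr1), with a median log2 ratio of -0.09. Ifng stood at 1136 CPM in SPP1fl/fl-Lyz2-icre (996 to 1290) and 675 CPM (599 to 758) in SPP1fl/fl, a ratio of 1.68 (1.41 to 2.01). The cells with it were 18 of 46 SPP1fl/fl-Lyz2-icre members and 34 of 71 SPP1fl/fl members, and the single highest cell held 74 of 237 UMIs in SPP1fl/fl-Lyz2-icre and 68 of 285 UMIs in SPP1fl/fl. Without the highest cell of each library the ratio was 1.51 (1.22 to 1.85). The share of members with Ifng at 2000 UMIs was 31.4% in SPP1fl/fl-Lyz2-icre and 36.8% in SPP1fl/fl, with intervals that overlap.

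Several receptors for cytokines were lower in SPP1fl/fl-Lyz2-icre members. Of 16 measured genes of that list, 4 were called lower (Il7r, Il18r1, Il27ra and Ifngr1) and 1 higher (Il2ra), with a median log2 ratio of -0.43. Ifngr1, the interferon-gamma receptor chain that binds the ligand, stood at 383 CPM in SPP1fl/fl-Lyz2-icre (in 32 members) and 739 CPM in SPP1fl/fl (in 61 members), a ratio of 0.519 (0.401 to 0.665). Il18r1 and Il18rap, the 2 chains of the interleukin-18 receptor, had ratios of 0.489 (0.314 to 0.738) for Il18r1 and 0.489 (0.259 to 0.871) for Il18rap. Il7r, the interleukin-7 receptor of long-lived T cells, stood at 244 CPM in SPP1fl/fl-Lyz2-icre and 408 CPM in SPP1fl/fl, a ratio of 0.6 (0.430 to 0.824). Phagocytes held 87.8 CPM of Il7r in SPP1fl/fl-Lyz2-icre and 89.0 CPM in SPP1fl/fl, and 200 CPM of Ifngr1 in SPP1fl/fl-Lyz2-icre and 247 CPM in SPP1fl/fl. Among cells with female transcripts alone, which are fewer, Il7r (ratio 0.682), Il18rap (0.607) and Il27ra (0.270) were not called.

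The naive and central memory list had 1 of 7 measured genes called higher (Klf2) and 2 lower (Lef1 and Il7r), with a median log2 ratio of -0.28. Klf2, a factor of recirculating T cells, had 29 UMIs in SPP1fl/fl-Lyz2-icre, of which 1 cell held 12, and 19 UMIs in SPP1fl/fl, a ratio of 3.09 (1.67 to 5.83), and phagocytes held 151 CPM in SPP1fl/fl-Lyz2-icre and 187 CPM in SPP1fl/fl. Lef1, which partners with Tcf7 in naive T cells, had 4 UMIs in SPP1fl/fl-Lyz2-icre and 27 in SPP1fl/fl, a ratio of 0.3 (0.0762 to 0.860). Of the Th17 list, 3 of 5 measured genes were called lower (Rora, Ahr and Tmem176a) and 0 higher, with a median log2 ratio of -0.90 that was 0.02 among cells with female transcripts. The calls of Lef1 (0.357), Klf2 (2.02), Rora (0.649) and Tmem176a (1.01) were lost among female cells, with ratios in brackets. Il17a itself lay in 1 cell of each library, with 14 UMIs in SPP1fl/fl-Lyz2-icre and 23 in SPP1fl/fl. Of the follicular helper list, 2 of 6 were called lower (Slamf6 and Izumo1r) and 0 higher, with a median of 0.02. The calls of Ahr, Tmem176a, Slamf6 and Izumo1r were lost without the members that held Il4, Il5 or Il13.

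Genes induced by T cell receptor signalling were divided. Of 17 measured, 4 were called higher (Egr1, Fos, Jun and Dusp2) and 3 lower (Nr4a1, Nr4a2 and Irf4), with a median log2 ratio of 0.04. Fos stood at 868 CPM in SPP1fl/fl-Lyz2-icre and 526 CPM in SPP1fl/fl, and Nr4a2, a nuclear receptor, at 158 CPM in SPP1fl/fl-Lyz2-icre and 287 CPM in SPP1fl/fl. The calls of Egr1, Jun and Irf4 were lost without the highest cell of each library, and that of Irf4 also among female cells. Fos and Jun also belong to the list of heat shock and dissociation genes, where 3 of 13 were called higher (Dnajb1, Fos and Jun) and 1 lower. The lower one, Hspa1a, had 2 UMIs in SPP1fl/fl-Lyz2-icre and 41 in SPP1fl/fl, a ratio of 0.0987 (0.0116 to 0.38). Of 18 genes of the receptor complex and its proximal signalling, Cd247 was called higher and Cd5, a brake on receptor signalling, lower (149 CPM in SPP1fl/fl-Lyz2-icre and 287 CPM in SPP1fl/fl), with a median of -0.23. The call of Cd247 was lost without the highest cells (1.46), among female cells (1.62) and without the members that held Il4, Il5 or Il13 (1.52). That of Dnajb1 was lost without the highest cells (1.74) and among female cells (1.20).

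Lists of surface regulators showed few calls. Of 8 inhibitory receptor genes 0 were higher and 1 was lower, namely Nt5e, which encodes the ecto-nucleotidase CD73 (43.1 CPM in SPP1fl/fl-Lyz2-icre and 109 CPM in SPP1fl/fl, a ratio of 0.396, 0.170 to 0.818). Of 9 co-stimulatory receptor genes, 8 chemokine receptor genes, 7 tissue residency genes and 18 glycolysis and hypoxia genes, 0 passed the call in either direction. The extremes of these lists were Icos (738 CPM in SPP1fl/fl-Lyz2-icre and 564 CPM in SPP1fl/fl) and the receptor Slamf1 (43.1 CPM in SPP1fl/fl-Lyz2-icre and 68.7 CPM in SPP1fl/fl) for co-stimulation. For chemokine receptors they were Cxcr4 (95.9 CPM in SPP1fl/fl-Lyz2-icre and 71.1 CPM in SPP1fl/fl) and Ccr7 (52.7 CPM in SPP1fl/fl-Lyz2-icre and 101.9 CPM in SPP1fl/fl). For residency they were Rgs1 (1170 CPM in SPP1fl/fl-Lyz2-icre and 910 CPM in SPP1fl/fl) and Cd69 (192 CPM in SPP1fl/fl-Lyz2-icre and 275 CPM in SPP1fl/fl), and for glycolysis and hypoxia the enzyme Ldha (992 CPM in SPP1fl/fl-Lyz2-icre and 915 CPM in SPP1fl/fl) and Bnip3 (33.6 CPM in SPP1fl/fl-Lyz2-icre and 61.6 CPM in SPP1fl/fl). Of 12 regulatory-associated genes, Il2ra was higher and 0 were lower, with a median of 0.01, and Ikzf2 was at 388 CPM in SPP1fl/fl-Lyz2-icre and 438 CPM in SPP1fl/fl. Of 8 cytotoxic genes, Prf1 alone was called, higher, with 11 UMIs in 2 SPP1fl/fl-Lyz2-icre members and 8 UMIs in 8 SPP1fl/fl members, and the call was lost without the highest cells. Of 11 type I interferon genes, Ifit1 and Ly6a were higher and Ifi203 lower, with Ifit1 resting on 1 cell that held 11 of 14 UMIs. Of 16 cell cycle genes, Rrm2 and Ccnb2 were higher and Mki67 and Top2a lower, and 1 SPP1fl/fl cell held 42 of that library's 105 Mki67 UMIs. Of 13 MHC class I presentation genes Psmb10 was lower, of 10 migration genes Klf2 was higher, and of 10 apoptosis and survival genes Bcl2 was lower (144 CPM in SPP1fl/fl-Lyz2-icre and 270 CPM in SPP1fl/fl, a ratio of 0.532, 0.344 to 0.802). Among female cells alone the calls of Bcl2 (0.750), Nt5e (0.675), Ly6a (1.34), Psmb10 (0.828), Rrm2 (1.35), Ccnb2 (2.02), Ifit1 and Prf1 were lost. Without the highest cells those of Ccnb2, Top2a and Ifit1 were lost, and without the members that held Il4, Il5 or Il13 those of Rrm2, Ifi203, Psmb10 and Il2ra.

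Of 10 listed genes through which T cells can bind osteopontin, 5 reached 50 CPM, of which 1 was called lower in SPP1fl/fl-Lyz2-icre members (Itgav) and 0 higher, with a median log2 ratio of -0.58. Itgav, the integrin alpha-V chain (chromosome 2, 83724397 to 83806916, plus strand), stood at 101 CPM (62.3 to 154, in 16 members) in SPP1fl/fl-Lyz2-icre and 225 CPM (182 to 275, in 40 members) in SPP1fl/fl, a ratio of 0.447 (0.265 to 0.723). In CD8 T cells it was at 175 CPM in SPP1fl/fl-Lyz2-icre and 299 CPM in SPP1fl/fl. Its log2 ratio turned to 0.83 when members with Il2ra or Ikzf2 were left out. Cd44 stood at 230 CPM in SPP1fl/fl-Lyz2-icre and 332 CPM in SPP1fl/fl (ratio 0.694, 0.489 to 0.969), Itgb1 at 220 CPM in SPP1fl/fl-Lyz2-icre and 329 CPM in SPP1fl/fl (ratio 0.669), Itga4 at 91.1 CPM in SPP1fl/fl-Lyz2-icre and 149 CPM in SPP1fl/fl and Itgb7 at 144 CPM in SPP1fl/fl-Lyz2-icre and 218 CPM in SPP1fl/fl, each short of the 1.5-fold call or with an interval that held 1. Itgb3 (28.8 CPM in SPP1fl/fl-Lyz2-icre and 35.5 CPM in SPP1fl/fl), Itgb5 (38.3 CPM in SPP1fl/fl-Lyz2-icre and 35.5 CPM in SPP1fl/fl) and Itga5 (14.4 CPM in SPP1fl/fl-Lyz2-icre and 11.8 CPM in SPP1fl/fl) lay under the limit of 50 CPM. Itga8 had 0 UMIs in both, and Itga9 had 0 UMIs in SPP1fl/fl-Lyz2-icre members and 2 in SPP1fl/fl members.

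Spp1 (chromosome 5, 104435118 to 104441050, plus strand) was itself counted in members. It had 36 UMIs in 6 SPP1fl/fl-Lyz2-icre members and 287 UMIs in 24 SPP1fl/fl members, or 173 CPM (121 to 239) in SPP1fl/fl-Lyz2-icre and 680 CPM (604 to 763) in SPP1fl/fl. The highest cell held 15 UMIs in SPP1fl/fl-Lyz2-icre and 109 UMIs in SPP1fl/fl. Phagocytes of the same libraries were at 6.47 CPM in SPP1fl/fl-Lyz2-icre and 621 CPM in SPP1fl/fl and CD8 T cells at 277 CPM in SPP1fl/fl-Lyz2-icre and 312 CPM in SPP1fl/fl. In SPP1fl/fl-Lyz2-icre members Spp1 was thus above the level of that library's phagocytes, and in SPP1fl/fl members it was close to it. Lyz2, a myeloid gene, had 72 UMIs in 20 SPP1fl/fl-Lyz2-icre members and 767 UMIs in 63 SPP1fl/fl members (345 CPM in SPP1fl/fl-Lyz2-icre and 1817 CPM in SPP1fl/fl), where 1 SPP1fl/fl cell held 280 UMIs. Apoe, another macrophage gene, stood at 638 CPM in SPP1fl/fl-Lyz2-icre and 974 CPM in SPP1fl/fl. The floxed exons are not stated, and the part of macrophage RNA in the members' Spp1 was not tested.

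The genes named for the difference between genotypes were the 12 highest and 12 lowest that met limits on depth, on spread over cells and on the level in phagocytes, out of 45 higher and 91 lower genes that met them. Cnih4, which helps cargo leave the endoplasmic reticulum, stood at 158 CPM (109 to 222, in 21 members) in SPP1fl/fl-Lyz2-icre and 47.4 CPM (28.9 to 73.2, in 12 members) in SPP1fl/fl, a ratio of 3.34 (1.86 to 6.14). Mapkapk3, a kinase downstream of p38, stood at 201 CPM in SPP1fl/fl-Lyz2-icre and 80.6 CPM in SPP1fl/fl, a ratio of 2.50 (1.55 to 4.05). Trafficking and membrane genes were Trappc6b (2.32) and Plp2 (2.24). Mitochondrial genes were Txn2, the mitochondrial thioredoxin (2.15), and Ndufs5 of respiratory complex I (1.84). Regulators of protein turnover were Cops9 of the COP9 signalosome and Anapc11 of the anaphase-promoting complex, both at 2.02. Lbr, the lamin B receptor (1.90), Cflar, an inhibitor of caspase-8 activation (1.89), the thioesterase Acot7 (1.86) and the kinase Taok3 (1.78) completed the 12, with ratios in brackets. Several moved by over 1.5 times under another choice of cells. Without members that held Il2ra or Ikzf2 the log2 ratio was 0.09 for Ndufs5 (0.84 with all members), and with Foxp3-positive cells counted in it was 0.24 for Cflar (0.89) and 0.84 for Cnih4 (1.64). Among female cells it was 0.35 for Anapc11 (0.97) and 0.54 for Trappc6b (1.15). In CD8 T cells, Mapkapk3, Plp2, Txn2, Cops9, Anapc11, Cflar and Ndufs5 were also higher in SPP1fl/fl-Lyz2-icre, while Cnih4, Trappc6b, Lbr, Acot7 and Taok3 were not. Anapc11 stood at 142 CPM in SPP1fl/fl-Lyz2-icre against 98.6 CPM in SPP1fl/fl CD8 T cells, and Ndufs5 at 101 against 74.9 CPM. Phagocytes held Cnih4 at 176 CPM in SPP1fl/fl-Lyz2-icre and 155 CPM in SPP1fl/fl.

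Among the 12 lower genes, Gbp4, an interferon-induced guanylate-binding protein, had 6 UMIs in 6 SPP1fl/fl-Lyz2-icre members and 49 UMIs in 26 SPP1fl/fl members (28.8 CPM in SPP1fl/fl-Lyz2-icre and 116 CPM in SPP1fl/fl), a ratio of 0.248 (0.0867 to 0.579). Gvin-ps6, a pseudogene of the very large inducible GTPases, was at 33.6 CPM in SPP1fl/fl-Lyz2-icre and 109 CPM in SPP1fl/fl (ratio 0.308), and its reads may be shared with near-identical copies. Senp6, which removes SUMO chains, was at 38.3 CPM in SPP1fl/fl-Lyz2-icre (in 6 members) and 149 CPM in SPP1fl/fl (in 37 members), a ratio of 0.257 (0.106 to 0.538). Ms4a4c was at 57.5 CPM in SPP1fl/fl-Lyz2-icre and 199 CPM in SPP1fl/fl (0.289), Mir6236 at 57.5 CPM in SPP1fl/fl-Lyz2-icre and 166 CPM in SPP1fl/fl (0.347), Taf10 of the general transcription factor TFIID at 62.3 CPM in SPP1fl/fl-Lyz2-icre and 175 CPM in SPP1fl/fl (0.355), and the chromatin remodeller Chd7 at 67.1 CPM in SPP1fl/fl-Lyz2-icre and 178 CPM in SPP1fl/fl (0.378). Mir6236 and Taf10 were among those also lower in other SPP1fl/fl-Lyz2-icre cells. Mir6236 stood at 49.3 CPM in SPP1fl/fl-Lyz2-icre against 184 CPM in SPP1fl/fl CD8 T cells, and at 38.5 CPM in SPP1fl/fl-Lyz2-icre against 98.2 CPM in SPP1fl/fl phagocytes. Taf10 stood at 75.7 CPM in SPP1fl/fl-Lyz2-icre against 123 CPM in SPP1fl/fl CD8 T cells, and at 65.9 CPM in SPP1fl/fl-Lyz2-icre against 101 CPM in SPP1fl/fl phagocytes. Map4 (0.379), Nt5e (0.396), Acap1 (0.414), Prex1, an activator of Rac (0.433), and Itgav (0.447) completed the 12. In CD8 T cells Senp6 stood at 77.0 CPM in SPP1fl/fl-Lyz2-icre against 116 CPM in SPP1fl/fl, and Gvin-ps6 at 64.2 against 128 CPM. Chd7, Nt5e, Prex1 and Itgav were also lower in SPP1fl/fl-Lyz2-icre CD8 T cells, while Gbp4, Ms4a4c, Map4 and Acap1 were not. Without members that held Il2ra or Ikzf2 the log2 ratio was -0.47 for Ms4a4c (-1.71 with all members) and -0.21 for Acap1 (-1.18). With Foxp3-positive cells counted in it was -0.39 for Prex1 (-1.14), and among female cells -0.53 for Nt5e (-1.24).

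**Figure D5:**
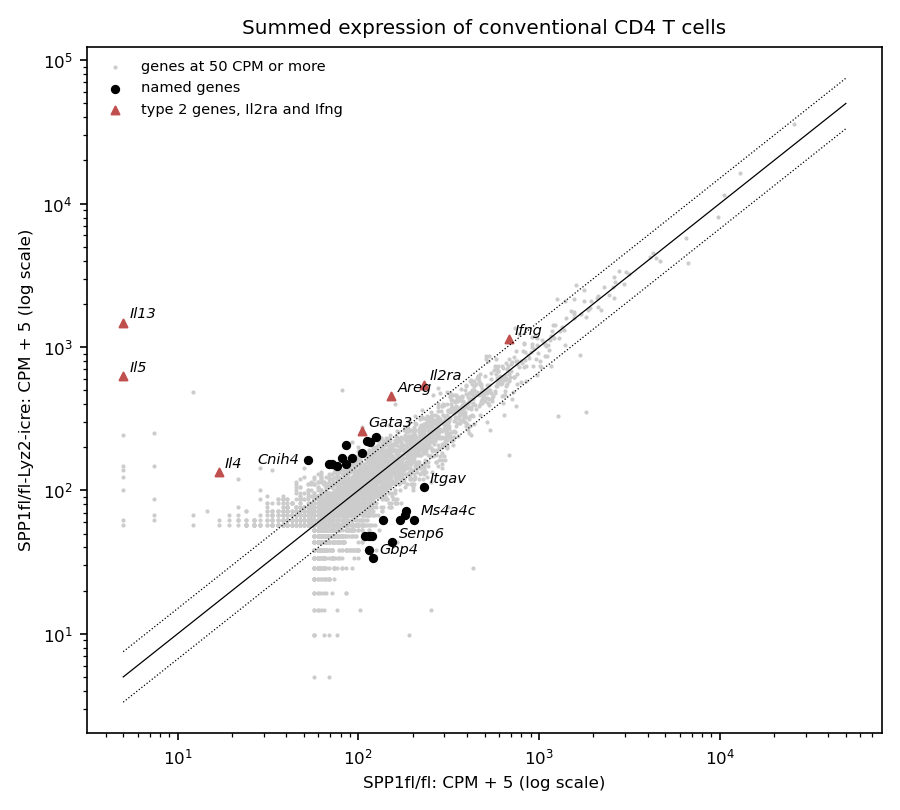
Each point is a gene at 50 CPM or more in either library, with the summed level in SPP1fl/fl-Lyz2-icre members on the vertical axis and in SPP1fl/fl members on the horizontal axis (CPM + 5, log axes), the solid line equal levels and the dotted lines 1.5-fold, for 1 library per genotype. Il13 and Il5 stand at the left edge, with 0 UMIs in SPP1fl/fl, while most genes lie between the dotted lines.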

How the data were processed

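Single-cell RNA was measured in 1 library of SPP1fl/fl-Lyz2-icre and 1 of SPP1fl/fl tumours with a 10x 3-prime kit (version 3). Reads were processed with bcl2fastq 5.0.1 and Cell Ranger against mm10, per the submitters' processing notes, and Cell Ranger was version 8.0.1 per the file headers. The annotation release is not given in the sources used here. The values are raw UMI counts per gene and called cell, deposited by the authors. Empty droplets were not used here, so free RNA was not removed.

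Kept cells had at least 300 genes, 500 UMIs and at most 15% mitochondrial UMIs, which left out 29 of 13944 SPP1fl/fl-Lyz2-icre barcodes and 430 of 9154 SPP1fl/fl barcodes. Doublets were not called: the gate itself refuses cells with Cd8, Ncr1 or high C1q, and members in the top 5% by UMIs were left out as an alternative. CD8 T cells had a Cd8a or Cd8b1 UMI and no Cd4, Foxp3-positive cells met the members' gate but for Foxp3, and C1q-high phagocytes had at least 0.3% C1q UMIs, no Cd3 UMI and a Csf1r UMI. Gated T cells had at least 2 Cd3 UMIs, no Ncr1 and less than 0.3% C1q.

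UMIs were summed per gate and library and divided by the gate's total (CPM). Intervals were exact Poisson for CPM, exact conditional binomial for ratios and Clopper-Pearson for shares, at 95%. The interval of cells per CD8 T cell was that of the conditional odds ratio. A gene was called at 1.5-fold or more with an interval clear of 1, among genes with 50 CPM in either library, leaving out the gate genes, Xist, Y-linked and mitochondrial genes, haemoglobins, ribosomal proteins and receptor segments. Log2 ratios had 5 CPM added. The intervals were also run on simulated Poisson counts, which have no spread between cells or mice. That is the model the intervals assume, so the run cannot bear on calls that rest on single cells. For shares of cells with a transcript, 2000 UMIs were drawn from each cell. A cell with Xist and without Y-linked UMIs counted as female, and one with Y-linked UMIs and without Xist as male. Genes named between genotypes needed 100 CPM, 30 UMIs and 15 members in the higher library, no cell with over 20% of the UMIs, and 0.5 of the phagocyte level, and the 12 highest and 12 lowest were named. Against other T cells the 10 highest and 10 lowest were named by the smaller of both libraries' log2 ratios, at 100 CPM. Called genes of each list, Spp1, Lyz2 and the osteopontin receptors were named as well. The cells in which single transcripts lay, and the overlap of genes between cells, were chosen after the values were seen. Some list genes are not reported here and were left out of the lists. Symbols of 3 list genes were matched by gene identifier. Coordinates are from GENCODE vM21 on mm10. The members and lists were chosen with earlier results of these data known. Python 3.11.15, numpy 2.4.6, scipy 1.17.1, pandas 2.3.3 and matplotlib 3.10.9 were used.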

Additional observations from a re-analysis of the deposited data

How the results depend on the processing

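With 1 library per genotype no replicate could be left out. No paired analysis was possible because each genotype has 1 library and no replicate numbers are shared. The share ratio among kept cells (0.406) was 0.627 without members that held Il2ra or Ikzf2 and 0.244 among male cells, and the ratio among gated T cells (0.626) was 0.966 and 0.373. Of all alternatives, 22 share ratios stayed within the interval of the main value and these 4 did not. The count of higher genes (202) was 306 with the mean of per-cell CPM and 309 with no filter on low genes, and the count of lower genes (195) was 319 with the mean of per-cell CPM, 129 with each member drawn down to 2000 UMIs and 116 at 100 CPM or more. Of the main calls, 65 higher and 54 lower genes were shared with the fit at 2000 UMIs, and 82 higher and 92 lower genes with that of female cells. Of 43 genes called in the lists, 32 kept their call without the member that held most of the gene's UMIs in each library, 29 without members that held Il4, Il5 or Il13 and 23 among female cells. The log2 ratio of Itgav turned to 0.83 without members that held Il2ra or Ikzf2, and the Th17 median to 0.017 in female cells. Of the medians of the gene lists under the alternatives, 243 counted as the same, 9 as moved and 1 as turned. Leaving out members with Il2ra or Ikzf2 gave 5 of those that moved. Of the log2 ratios of the 24 genes named between genotypes under these alternatives, 249 stayed within the interval of the main value, 14 moved out of it and 1 turned. Over them Anapc11 ranged between 0.35 and 5.14, Cnih4 between 0.84 and 3.42, and Gbp4 between -4.43 and -1.33. At 1000 UMIs, Il2ra or Ikzf2 were found in 34.3% of SPP1fl/fl members, Th1 genes in 41.4%, and cycling genes in 10.9% of SPP1fl/fl-Lyz2-icre members. Without drawing down, SPP1fl/fl members stood at 73.2% for Il2ra or Ikzf2, 78.9% for Th1 genes and 46.5% for cycling genes. For the changes of the ratios, of Itgav and of the list medians the cause was not tested. Fewer genes or UMIs enter at 100 CPM and at 2000 or 1000 UMIs. Median-of-ratios scaling moved the median log2 ratio of the tested genes from 0.015 to 0. The alternatives that counted Foxp3-positive cells in, left out members with MHC class II transcripts above 0.3% or with Il4, Il5 or Il13, or left out the highest cell were chosen after seeing the data. Expression was not computed for male members alone or for members with no C1q UMI, which were under 10 in a library. With 46 SPP1fl/fl-Lyz2-icre and 71 SPP1fl/fl cells, 3 counts came to 14.4 CPM in SPP1fl/fl-Lyz2-icre and 7.11 CPM in SPP1fl/fl, and levels below these rest on 1 or 2 UMIs.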
